A study of Mus musculus with 6 samples.

Results

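The 10 genes described here are 10 of the 52636 genes in the table. They are set by a list of names, chosen with earlier results of these data known, and the rule itself uses no measured value. The list holds the glucocorticoid targets Fkbp5, Tsc22d3, Zbtb16, Sgk1, Errfi1, Cdkn1a, Pdk4 and Ddit4, and the metallothioneins Mt1 and Mt2. All 10 were present in the table and all 10 passed the filter on low counts.

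Bulk RNA sequencing covered whole thoracic aortas of 12-week-old male mice, 4 libraries labelled WT and 2 labelled KO. The WT mice were untreated C57BL/6J and carried neither the Cre transgene nor the reporter. The Tgfbr1/2iSMCKO mice (KO) were of C57BL/6J background with floxed alleles of Tgfbr1 and Tgfbr2, the mT/mG reporter and Myh11-CreERT2, a tamoxifen-dependent Cre driven by the smooth muscle myosin promoter and inserted on the Y chromosome. Tamoxifen was injected into them on 5 days, 2 mg daily, starting at 11 weeks. The groups therefore differed in the floxed alleles, Cre, the reporter and tamoxifen together, and the effects of these cannot be told apart. Mice were anaesthetised before the aorta was taken, and the labels give neither the hour nor the batch of the dissections.

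Libraries held 19650983 to 28860598 counts. The share of mitochondrially encoded transcripts was 2.62% to 4.44% in WT, 3.38% in KO-1 and 11.7% in KO-2. The targeted transcripts did not separate the groups: the DESeq2 log2 fold change was 0.20 for Tgfbr1 (adjusted p = 0.630) and −0.09 for Tgfbr2 (adjusted p = 0.838), so the libraries are named by their labels. Smooth muscle markers such as Myh11 and Acta2 were abundant in every library, with a summed normalised count (scaled by each library's DESeq2 size factor) of 1039785 to 1188082 in WT, 1031813 in KO-1 and 1166015 in KO-2, and 0 of the 9 passed the test in DESeq2 or edgeR (4 had an unadjusted p under 0.05, 3 lower and 1 higher). Summed markers of red blood cells, fat and cardiac muscle lay above WT in both KO libraries, though not every marker did. Red blood cell markers summed to 859.3 to 5990 in WT, 11076 in KO-1 and 61684 in KO-2, and all 4 of the 4 tested passed higher. The corresponding values for cardiac muscle and fat are given with Pdk4.

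Glucocorticoids such as corticosterone act through the glucocorticoid receptor, encoded by Nr3c1, which is held in the cytoplasm by Hsp90 and its co-chaperones until the hormone binds. The receptor then enters the nucleus and binds the glucocorticoid response element (GRE), a palindrome of paired arms set around a short spacer. Its targets include genes that restrain its own action, restrain inflammation and switch fuel use, and corticosterone follows a daily rhythm and rises with handling and stress. Metallothioneins are small cysteine-rich proteins that bind zinc and copper; their genes are switched on by zinc through the sensor MTF1 at metal response elements (MRE) and also by glucocorticoids.

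Letters that match these response elements were searched for in the promoters. RefSeq windows on GRCm38.p6, running from 250 bases before to 50 bases after an annotated start, were matched for 9 of the 10 genes, all but Zbtb16, giving 18 windows because Sgk1, Tsc22d3, Cdkn1a and Errfi1 have several starts. The motifs searched on both strands were the GRE (AGAACA, any 3 bases, TGTTCT), its single arm AGAACA, the MRE core (TGCACNC or TGCGCNC) and the E-box CACGTG bound by clock proteins. The 4 sequences that follow are the 250 bases before one annotated start each, with motif matches in capitals, shown because they hold the GRE of Sgk1, the MRE cores of the metallothioneins and the E-box of Fkbp5.

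Sgk1, chr10:21993640-21993889, plus strand, GRE in capitals: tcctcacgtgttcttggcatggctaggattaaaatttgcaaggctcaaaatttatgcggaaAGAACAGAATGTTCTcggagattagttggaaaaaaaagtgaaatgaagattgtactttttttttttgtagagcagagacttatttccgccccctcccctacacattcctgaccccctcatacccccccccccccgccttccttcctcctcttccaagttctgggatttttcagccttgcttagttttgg

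Mt1, chr8:94178839-94179088, plus strand, MRE core in capitals: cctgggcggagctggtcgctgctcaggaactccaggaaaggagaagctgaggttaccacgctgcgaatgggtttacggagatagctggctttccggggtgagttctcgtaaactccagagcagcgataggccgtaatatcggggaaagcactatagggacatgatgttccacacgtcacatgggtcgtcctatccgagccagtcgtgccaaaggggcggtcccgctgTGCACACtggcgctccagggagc

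Mt2, chr8:94172368-94172617, plus strand, MRE cores in capitals: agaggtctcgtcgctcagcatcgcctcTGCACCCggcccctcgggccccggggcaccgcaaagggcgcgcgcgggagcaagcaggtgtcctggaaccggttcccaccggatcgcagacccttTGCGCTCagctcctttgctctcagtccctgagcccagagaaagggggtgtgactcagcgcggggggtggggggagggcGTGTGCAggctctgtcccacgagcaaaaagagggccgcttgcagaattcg

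Fkbp5, chr17:28486150-28486399, minus strand, E-box in capitals: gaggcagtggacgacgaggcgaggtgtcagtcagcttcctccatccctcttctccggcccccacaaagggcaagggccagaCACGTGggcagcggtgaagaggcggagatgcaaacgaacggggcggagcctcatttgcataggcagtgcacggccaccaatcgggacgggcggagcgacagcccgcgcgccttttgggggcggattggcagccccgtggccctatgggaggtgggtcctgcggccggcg

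The full palindrome was rare: 3 of all 32851 windows in the table held it (0.00913%), and 1 of these was the Sgk1 window shown, with the match from −189 to −175 when the annotated start is counted as 0. The single arm was common (18.97% of all windows) and lay in 4 of the 18 windows, 3 of Sgk1 and 1 of Tsc22d3. In the printed Sgk1 sequence the first lower-case bases also hold an E-box, at −246, which overlaps a single arm that begins at −242. MRE cores lay in 25.7% of all windows and in the windows of Mt1, Mt2, Sgk1 and Ddit4, where Mt2 had 4 matches and Mt1 had 3. For Mt1, 1 match lies before the start and is printed, while the matches at 2 and 20 lie after it. E-boxes lay in 7.15% of all windows and in those of Fkbp5, at −169, and Sgk1. These are matches of letters in short windows. The known response elements of several of these genes lie outside such windows, and 14 of the 18 windows ended within a GENCODE transcript of the gene.

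**Figure D1:**
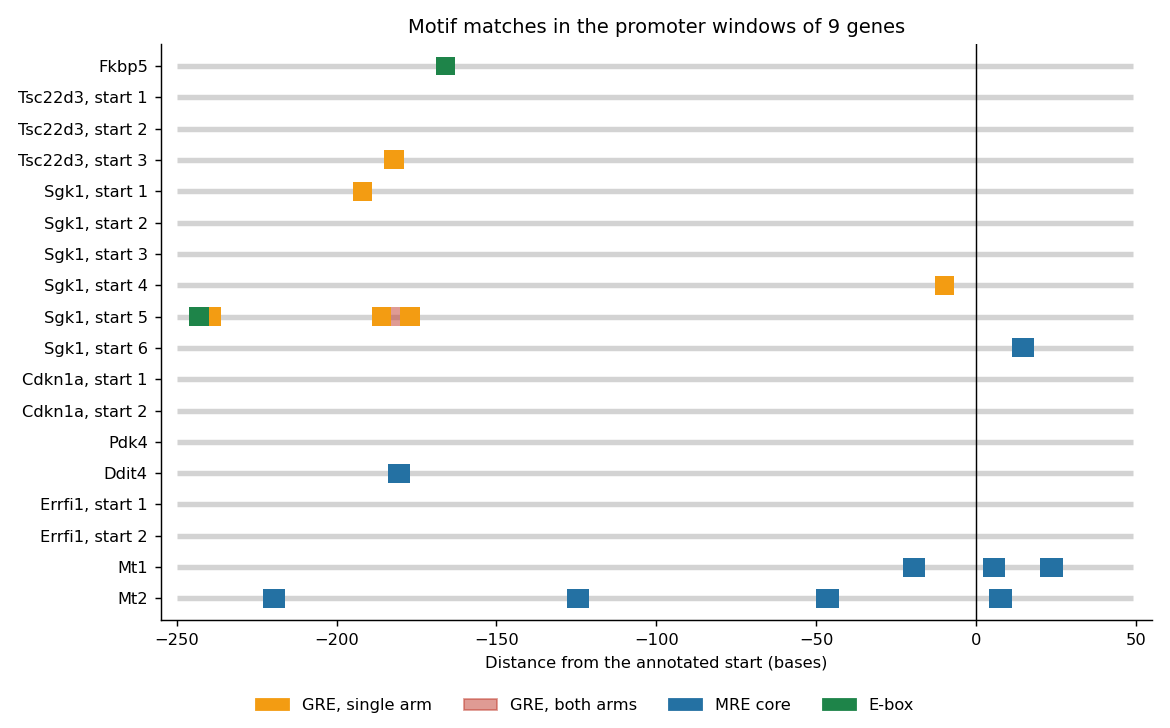
Motif matches in the 18 promoter windows of 9 genes, plotted by distance from the annotated start in bases, with 1 grey line per window and 1 coloured box per match. The metallothioneins hold 3 and 4 MRE cores, and the only match with both GRE arms is in a Sgk1 window.

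The transcripts spanned a wide range of levels in untreated aorta. On the scale of counts per kilobase of exon per 1000000 counts of the library, where genes can be compared with each other, Mt1 stood at 71.2 ± 9.86 (SD, n = 4 WT), above 96.8% of the 15530 protein-coding genes expressed in WT. Mt2 followed at 56.2 ± 5.09, and the ranges of both metallothioneins over the 4 WT libraries lay apart from each other and above all 8 other genes. The merged exons of Mt1 (1246 bases) cover its whole annotated span, where those of Mt2 are 588 bases. The distance between these levels therefore depends on the annotation. Sgk1 (21.2 ± 4.02), Errfi1 (20.2 ± 5.78), Zbtb16 (16.1 ± 7.48), Tsc22d3 (12.2 ± 4.55), Cdkn1a (11.5 ± 1.56), Ddit4 (8.26 ± 2.42), Pdk4 (5.81 ± 0.581) and Fkbp5 (4.20 ± 1.37) came next in that order. Each of these 8 overlapped its neighbour in the order over the WT libraries, so the order of neighbours is not resolved. Genes further apart in it could be separate, as Sgk1 (18.6 to 27.2) was from Cdkn1a (9.34 to 13.1) and Cdkn1a from Pdk4 (5.24 to 6.62). The order also shifts with the exon length used: by longest transcript in place of merged exons Fkbp5 moved from rank 10 to 8 and Pdk4 from 9 to 10.

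KO aortas did not show a shared direction across the 10 genes. By the DESeq2 Wald test, 4 of 10 passed an adjusted p under 0.05, against 10.4% of the 17070 genes tested: Pdk4 and Cdkn1a were higher (2 of 10, against 5.71% of all genes) and Fkbp5 and Sgk1 lower (2 of 10, against 4.69%). Pdk4 and Cdkn1a also exceeded 2-fold, 2 of 10 against 5.64% of all genes. The KO libraries both lay outside the WT range for 5 of 10 genes, against 34.3% of all genes, the fifth being Mt2. The median log2 fold change of the 10 was −0.42, beside 0.01 over all genes tested. Because the 10 were named with earlier results of these data known, these shares are a description and not a test. Without WT-1, WT-3 or WT-4 the count past the adjusted p was 2 with 0 lower, and without WT-2 it had 1 lower. Genes called numbered 1 without WT-4 and 5 without KO-2, where 4 passed higher. The results that turn on 1 library are given with each gene.

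**Figure D2:**
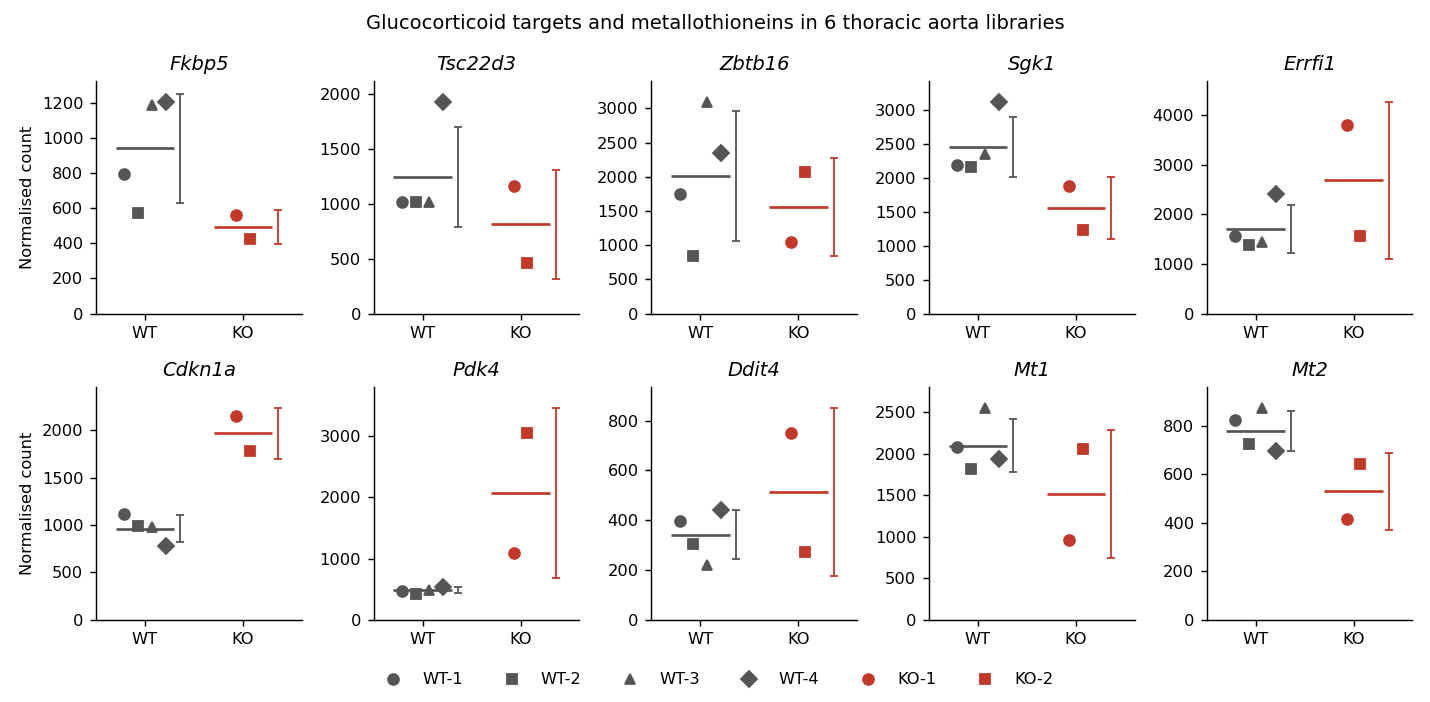
Normalised counts of the 10 genes in the 6 libraries, 1 panel per gene with its own linear axis from 0; symbols mark libraries, horizontal lines group means and bars 1 SD. Cdkn1a and Pdk4 lie above the WT range in both KO libraries, Fkbp5, Sgk1 and Mt2 below it, and the KO libraries lie far from each other for Tsc22d3, Errfi1, Ddit4, Pdk4 and Mt1.

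The first group holds genes that limit glucocorticoid action or carry its anti-inflammatory arm. Fkbp5 (ENSMUSG00000024222.16, chr17:28399094-28517527, minus strand) encodes a co-chaperone of Hsp90 that lowers the receptor's affinity for hormone and so closes a feedback loop. Its normalised counts in the WT libraries, numbered 1 to 4, were 796.3, 572.9, 1188 and 1202, and those of KO-1 and KO-2 were 563.0 and 426.5. Both KO libraries lay below all 4 WT libraries, though KO-1 was close to WT-2, the lowest of them. The mean fell to 494.8 ± 96.5 (SD, n = 2) in KO, beside 939.9 ± 308.5 (SD, n = 4) in WT, and the DESeq2 log2 fold change was −0.92 (SE 0.30, adjusted p = 0.0275). The change stayed under 2-fold in that fit, and it passed the adjusted p in 8 of 16 alternative fits, with values from 0.00186 to 0.612. It did not pass without WT-1 (adjusted p = 0.0525), WT-3 (0.122), WT-4 (0.128) or KO-2 (0.325), or in either edgeR fit (0.125 with a low-count filter and 0.145 without).

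Tsc22d3 (ENSMUSG00000031431.13, chrX:140539528-140600659, minus strand) encodes GILZ, the glucocorticoid-induced leucine zipper that dampens inflammatory signalling. Its counts were 1017, 1016, 1021 and 1925 in WT and 1165 and 460.9 in KO-1 and KO-2. KO-1 lay inside the WT range and KO-2 below it, while WT-4 stood far above 3 nearly equal WT libraries. The log2 fold change of −0.61 (SE 0.36) did not pass the test (DESeq2 adjusted p = 0.316). Without KO-1 it was −1.43 (adjusted p = 0.00367), and without KO-2 it was −0.08 (adjusted p = 0.942).

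Zbtb16 (ENSMUSG00000066687.5, chr9:48654297-48836222, minus strand) encodes PLZF, a zinc finger transcription factor that is strongly induced by glucocorticoids in many tissues. Its counts were 1754, 844.2, 3090 and 2354 in WT and 1049 and 2067 in KO. Both KO values lay within the WT range, which spanned 3.66-fold from WT-2 to WT-3, a wider span than in 98.2% of the 11435 genes with a mean of at least 100. The log2 fold change of −0.37 (SE 0.62, adjusted p = 0.802 in DESeq2) had a 95% interval from −1.59 to 0.86, so a change of either sign was within the error. Without KO-1 it was 0.04.

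The next pair act in signalling. Sgk1 (ENSMUSG00000019970.15, chr10:21882184-21999903, plus strand), whose GRE is printed above, encodes a kinase that promotes sodium channel activity and cell survival and is a target of the mineralocorticoid receptor as well. Its counts were 2181, 2158, 2353 and 3108 in WT and 1872 and 1225 in KO. Both KO libraries lay below the WT range, KO-2 by more than KO-1. The mean fell to 1549 ± 457.1 (SD, n = 2), beside 2450 ± 447.4 (SD, n = 4) in WT, and the log2 fold change of −0.66 (SE 0.23) narrowly passed the DESeq2 test (adjusted p = 0.0473). It passed in only 4 of 16 alternative fits. TMM scaling gave an adjusted p of 0.0523, the edgeR fits 0.117 and 0.151, and leaving out WT-1, WT-2, WT-3, WT-4 or KO-2 gave 0.0744, 0.0815, 0.0937, 0.145 and 0.461.

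Errfi1 (ENSMUSG00000028967.10, chr4:150853919-150868892, plus strand) encodes MIG6, an inhibitor that binds the EGF receptor and blocks its kinase. Its counts were 1570, 1393, 1447 and 2409 in WT, 3798 in KO-1 and 1568 in KO-2. KO-1 stood above every other library and KO-2 lay among the lower WT libraries. The log2 fold change of 0.66 (SE 0.33) did not pass (DESeq2 adjusted p = 0.209). Without KO-2 it was 1.17 (adjusted p = 0.00713), and without KO-1 it was −0.12 (adjusted p = 0.864).

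The third group acts on growth and fuel use, and the 2 genes above 2-fold are both in it. Cdkn1a (ENSMUSG00000023067.13, chr17:29090976-29100727, plus strand) encodes p21, an inhibitor of cyclin-dependent kinases that is also a classical target of p53. Its counts were 1112, 986.9, 977.6 and 774.8 in WT and 2154 and 1779 in KO. Both KO libraries lay well above all 4 WT libraries and close to each other. The mean rose to 1966 ± 265.6 (SD, n = 2), beside 962.7 ± 139.4 (SD, n = 4) in WT, and the log2 fold change was 1.03 (SE 0.20, DESeq2 adjusted p = 2.22e-05). It passed the adjusted p in 15 of 16 alternative fits, with log2 fold changes of 0.89 to 1.17, and fell under 2-fold without WT-4 (0.94) and without KO-1 (0.89). Of the other p53 targets, 15 genes, only Ccng1 passed higher and only Bax lower. Ccng1, cyclin G1, was 2024 to 2548 in WT and 4494 and 4355 in KO (SE of the log2 fold change 0.17, adjusted p = 3.33e-07), and Bax, which promotes apoptosis, was 692.3 to 1113 in WT and 592.6 and 433.9 in KO (−0.76, adjusted p = 0.0303). Bax did not pass the adjusted p in 8 of the 16 fits, among them those without WT-1, WT-2 or KO-2, and without WT-3 the list's higher count was 2.

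Pdk4 (ENSMUSG00000019577.6, chr6:5483351-5496309, minus strand) encodes the pyruvate dehydrogenase kinase that turns cells from glucose to fatty acid oxidation in fasting, and is abundant in heart and oxidative fat. Its counts were 476.7, 426.6, 480.3 and 543.0 in WT, 1088 in KO-1 and 3050 in KO-2. The WT libraries were tight and both KO libraries stood well above the highest of them, KO-2 far above KO-1. The mean rose to 2069 ± 1387 (SD, n = 2), beside 481.6 ± 47.7 (SD, n = 4) in WT. This was the largest change of the 10 genes, with a log2 fold change of 2.1 (SE 0.33, DESeq2 adjusted p = 1.75e-08). The call held in all 16 alternative fits, with log2 fold changes from 1.19 without KO-2 to 2.67 without KO-1. Summed markers of other tissues that use fatty acids also lay above WT in both KO libraries. The fat sums were higher in KO-2, as Pdk4 was, and the cardiac sum was higher in KO-1. Brown adipocyte markers summed to 1267 to 1570 in WT, 4140 in KO-1 and 13593 in KO-2, with 5 of 7 passing higher. White adipocyte markers summed to 2547 to 4894 in WT, 5392 in KO-1 and 37810 in KO-2, with 3 of 6 passing higher. Cardiac muscle markers summed to 973.5 to 1942 in WT, 21003 in KO-1 and 2683 in KO-2, with 3 of 7 passing higher. Both KO libraries lay above WT for 5 of 7 brown adipocyte, 2 of 6 white adipocyte and 2 of 7 cardiac markers. In KO-1, Ucp1 (40.2), Adipoq (330.1) and Plin1 (434.8) lay within the WT range, and Dio2 (3153) made up most of the brown adipocyte sum. In KO-2, Myh6 (113.1) and Actn2 (136.4) lay within the WT range and Myl4 (98.3) lay below it. Tnnt2 (1975) made up most of the cardiac sum in KO-2. No defining marker of these lists was at 0 in a whole group, and the part of these tissues in the Pdk4 values was not tested. In bulk tissue, more cells of a type and more RNA per cell cannot be told apart.

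Ddit4 (ENSMUSG00000020108.4, chr10:59949669-59951834, minus strand) encodes REDD1, an inhibitor of mTORC1 induced by glucocorticoids, hypoxia and energy stress. Its counts were 398.7, 303.5, 221.7 and 442.7 in WT, 750.4 in KO-1 and 274.1 in KO-2. As with Errfi1, KO-1 was the highest library and KO-2 lay inside the WT range. The log2 fold change of 0.59 (SE 0.38) did not pass (DESeq2 adjusted p = 0.384). Without KO-2 it was 1.15 (adjusted p = 0.0433), and without KO-1 it was −0.32 (adjusted p = 0.688). The part of the cardiac transcripts, which were also highest in KO-1, in the Errfi1 and Ddit4 values was not tested.

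The metallothioneins lie side by side, Mt1 (ENSMUSG00000031765.8) at chr8:94179082-94180327 and Mt2 (ENSMUSG00000031762.7) at chr8:94172664-94173568, both on the plus strand downstream of the MRE cores printed above. Counts of Mt1 were 2083, 1814, 2544 and 1940 in WT, 965.2 in KO-1 and 2059 in KO-2. Counts of Mt2 were 826.0, 727.4, 872.8 and 696.4 in WT, 416.6 in KO-1 and 642.9 in KO-2. For both genes KO-1 lay far below WT, while KO-2 lay within the WT range for Mt1 and just below it for Mt2. Neither passed the DESeq2 test, with log2 fold changes of −0.47 (SE 0.28, adjusted p = 0.322) for Mt1 and −0.56 (SE 0.23, adjusted p = 0.106) for Mt2. Without KO-2 both passed, at −1.11 (adjusted p = 0.000148) and −0.90 (adjusted p = 0.00261), and without KO-1 they were −0.02 and −0.28 (adjusted p = 0.969 and 0.475). The ratio of Mt1 to Mt2 counts was 2.49 to 2.92 in WT, 2.32 in KO-1 and 3.20 in KO-2, so the libraries labelled KO lay on either side of the WT range. In Mt2, 254 of 554 stretches of 50 bases also occur in the antisense transcript Gm45774, which was counted at 5 to 10 per library. No such stretch of Mt1 was shared with another gene. In Cdkn1a, 301 of 3547 such stretches were shared, with 584 other genes, and in Pdk4 49 of 3506, with 197.

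The 2 libraries labelled KO disagreed with each other on most of these genes. Relative to the WT mean on the log2 scale, Errfi1 was 1.16 in KO-1 and −0.12 in KO-2, and Ddit4 was 1.13 and −0.32. Tsc22d3 was also higher in KO-1, at −0.09 against −1.43 in KO-2. In the opposite sense, Mt1 was −1.12 in KO-1 and −0.03 in KO-2, and Pdk4 was 1.17 and 2.66. Cdkn1a (1.16 and 0.89) and Fkbp5 (−0.74 and −1.14) were the most alike. The fold between the KO libraries was 2.73 for Ddit4, 2.53 for Tsc22d3 and 2.42 for Errfi1, KO-1 being the higher, against a median of 1.22 and a 90th percentile of 1.75 over the 11435 genes. With KO-2 the higher, the ratio of KO-1 to KO-2 was 0.357 for Pdk4, 0.469 for Mt1, 0.507 for Zbtb16 and 0.648 for Mt2. KO-2 was the library with the fewest counts and the highest mitochondrial share, and whether either bears on these differences was not tested.

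**Figure D3:**
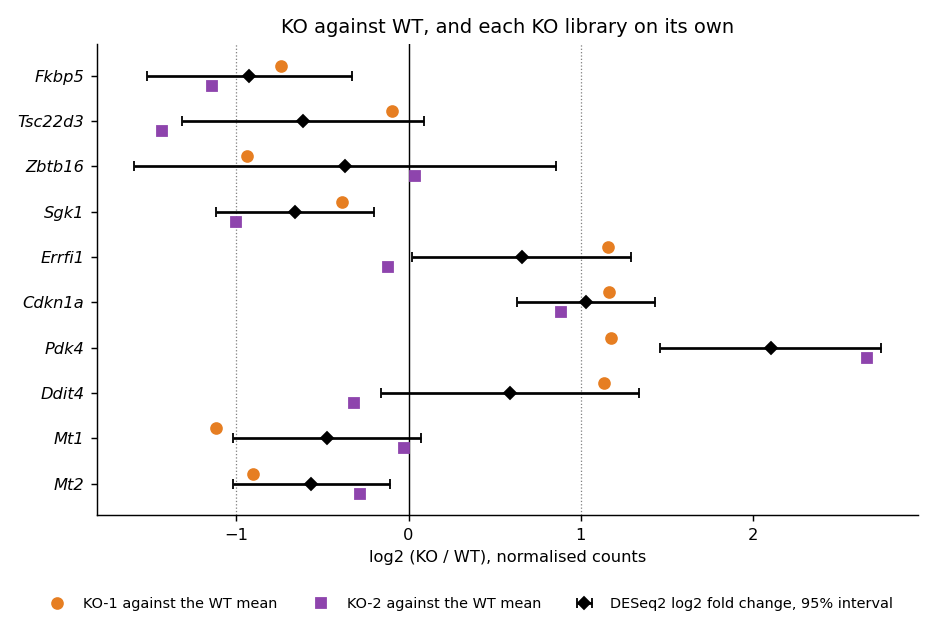
Differences between KO and WT on a log2 axis: diamonds show the DESeq2 log2 fold change with its 95% interval, circles KO-1 and squares KO-2 against the WT mean, and dotted lines 2-fold. The KO libraries fall on opposite sides of 0 for Zbtb16, Errfi1 and Ddit4 and lie close together for Cdkn1a.

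Untreated aortas also varied in these genes. The highest WT library over the lowest was 3.66 for Zbtb16, 2.1 for Fkbp5, 2.00 for Ddit4 and 1.90 for Tsc22d3, each above the 90th percentile of 1.84 over the 11435 genes, where the median was 1.3. Pdk4 (1.27) and Mt2 (1.25) were the steadiest. Of the 8 glucocorticoid targets, 6 were lowest of the WT libraries in WT-2, where 17.9% of all those genes were lowest, and 6 were highest in WT-4, against 26.7% of all. Genes of 1 pathway are not independent, so these counts describe the 4 libraries. Some of the lowest ranks in WT-2 were near ties with WT-1: Tsc22d3 was 1016 in WT-2 and 1017 in WT-1, and Sgk1 was 2158 and 2181. Zbtb16 (844.2 and 1754) and Fkbp5 (572.9 and 796.3) were further apart. The 21 other glucocorticoid-induced genes with a mean of at least 100 had 8 lowest in WT-2, 9 highest in WT-3, against 26.9% of all, and 3 highest in WT-4.

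**Figure D4:**
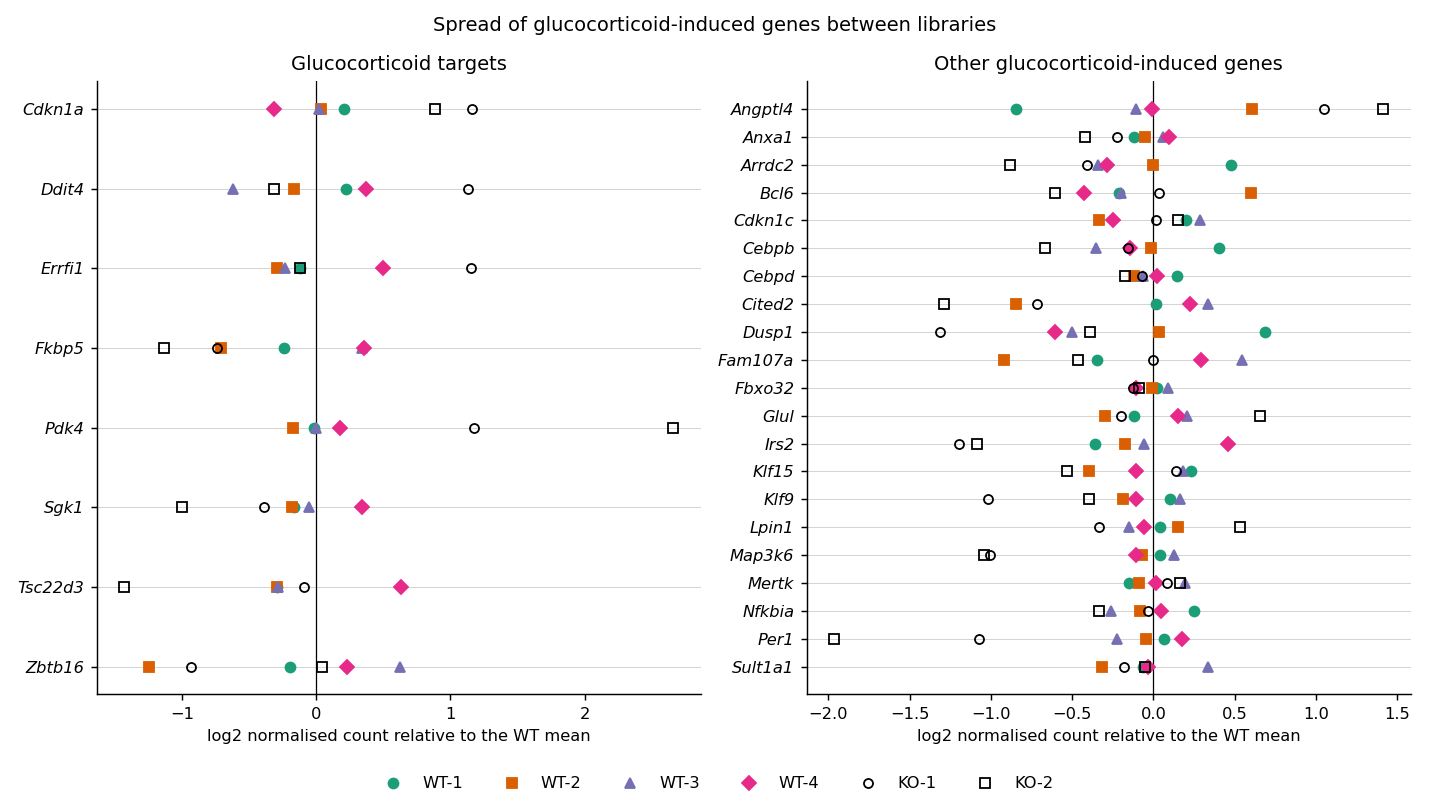
Log2 normalised counts relative to the WT mean for the 8 glucocorticoid targets (left) and 21 other glucocorticoid-induced genes (right); filled symbols are WT libraries and open symbols KO libraries. Zbtb16 and Fkbp5 show a wide WT spread with WT-2 lowest, and Per1, Irs2 and Map3k6 lie below WT in both KO libraries.

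Nr3c1, the receptor itself, was 4967 to 6245 in WT and 6817 and 6059 in KO (log2 fold change 0.21, DESeq2 adjusted p = 0.517). Of 15 genes for the receptor, its chaperones, cofactors and the enzymes that make or remove active hormone, 0 passed higher in DESeq2 or in edgeR with the filter, with 1 higher at an unadjusted p under 0.05, and 2 passed higher without KO-2.

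Among 24 other glucocorticoid-induced genes 1 passed higher and 5 lower, with a median log2 fold change of −0.16. Per1, a clock gene with its own GRE, was 2575 to 3398 in WT and 1429 and 770.7 in KO (−1.45, SE 0.25, adjusted p = 4.60e-07 in DESeq2) and passed in all 16 alternative fits. Map3k6, a stress-activated kinase, was 578.5 to 681.1 in WT and 311.1 and 302.4 in KO (−1.02, SE 0.20, adjusted p = 1.01e-05). Irs2, the insulin receptor substrate, was 1817 to 3214 in WT and 1021 and 1100 in KO (−1.14, SE 0.24, adjusted p = 8.51e-05). All 3 had both KO libraries below the whole WT range. Klf9 (−0.67) and Cited2 (−0.97) passed at less than 2-fold, and neither passed without WT-1 or WT-3. Cited2 also did not pass without WT-4 or KO-2, nor Klf9 without KO-1. Angptl4, an inhibitor of lipoprotein lipase that also answers to PPARs, was the 1 gene that rose, from 108.7 to 298.1 in WT to 405.2 and 522.4 in KO (1.24, SE 0.35, adjusted p = 0.00761), a call lost without KO-2 (0.205). Without WT-1 or WT-3 the lower count was 3, and without KO-1 the higher count was 3.

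Mtf1, the zinc sensor, was 701.0 to 871.9 in WT and 887.0 and 633.0 in KO (−0.07, adjusted p = 0.896 in DESeq2). Of 20 genes of metal sensing and transport 15 were tested, 1 passed higher and 1 lower, a share near the 10.4% of all genes. Slc39a8, a zinc and manganese importer, was 66.5 to 98.9 in WT, 163.1 in KO-1 and 475.7 in KO-2 (2.02, SE 0.42, adjusted p = 5.44e-05), and without KO-2 it was 1.07 with an adjusted p of 0.111, and 0 genes passed higher. Slc39a7, which releases zinc from the endoplasmic reticulum, was 2091 to 2852 in WT and 1490 and 1439 in KO (−0.72, SE 0.19, adjusted p = 0.00338). Without KO-1, 3 passed lower. Mt4 was at 0 in every library, and Mt3 had at most 9.86 normalised counts. Of 7 oxidative stress targets 6 were tested by DESeq2 and 0 passed in either direction, with 1 at an unadjusted p under 0.05 and 0 in edgeR. Without KO-1, 1 passed in each direction, and without KO-2, 1 lower.

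Of 13 paralogs of the 10 genes 11 were tested, 1 passed higher and 0 lower (1 lower at an unadjusted p under 0.05, and 0 in edgeR). Without KO-2, 2 passed higher, and without WT-4 or KO-1, 1 passed lower. Ddit4l, which encodes REDD2, was 77.3 to 142.8 in WT and 290.6 and 255.7 in KO (1.20, SE 0.31, DESeq2 adjusted p = 0.00305), so unlike Ddit4 it lay above WT in both KO libraries, and its adjusted p without KO-1 was 0.0623. Pdk1, Pdk2 and Pdk3 had log2 fold changes of 0.51, 0.48 and 0.06 and did not pass (adjusted p = 0.0548, 0.169 and 0.919). Tests of the difference between paralogs were not run.

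Other pathways that act on Pdk4 and Ddit4 were read from further lists. Angptl4, Irs2 and Klf15 of the fasting list are also among the other glucocorticoid-induced genes above. PPAR and FOXO factors also induce Pdk4. The list of fasting, PPAR and FOXO targets also holds Ppara, Foxo1 and Foxo3, which encode such factors. Of its 17 genes, 1 passed lower, against 4.69% of all genes, and 7 passed higher, against 5.71%, with a median of 0.62. They included the fatty acid transporter Cd36, at 230.7 to 532.5 in WT and 1726 and 3381 in KO (2.71, SE 0.33, adjusted p = 6.61e-14 in DESeq2), and Ppargc1a (1.42), Ucp3 (4.09) and Plin2 (1.03), which are prominent in fat and muscle and for which KO-2 was the highest library. Without KO-2 their log2 fold changes were 0.90, 1.0 and 0.17 and did not pass (adjusted p = 0.0558, 0.748 and 0.738). Without KO-2 the higher count was 1 and without WT-1 it was 4, and Plin2 lost its call when any 1 of the WT libraries was left out. Ppargc1a is in both this list and the brown adipocyte list, so these lists are not independent. The part of the fat and cardiac markers given with Pdk4 in these values was not tested. Of 14 targets of hypoxia and amino acid stress, which also induce Ddit4, 4 passed higher and 0 lower (2 lower at an unadjusted p under 0.05, 0 in edgeR), with a median of −0.20. Egln3, an oxygen sensor that hypoxia induces, was 205.4 to 267.3 in WT and 709.5 and 736.3 in KO (1.56, SE 0.21, adjusted p = 6.43e-11). Asns, asparagine synthetase, was 23.0 to 59.3 in WT and 81.2 and 146.3 in KO (1.49, adjusted p = 0.0297). Vegfa (0.78) and Ndrg1 (0.73) passed at less than 2-fold, and without KO-2 the count was 2. The Asns call was lost without WT-1, WT-3 or KO-2.

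Circadian genes had the most calls of the 11 related lists. Of 16 circadian genes 3 passed higher and 10 lower, with a median of −1.12. The activators Arntl (3.81) and Npas2 (2.38) were higher and the repressors Per2 (−2.03) and Per3 (−2.06) lower, with adjusted p of 6.92e-12, 3.83e-16, 2.82e-19 and 7.77e-10 in DESeq2. Over the alternative fits 3 passed higher in each and 7 to 12 lower. Immediate early genes answer to stimuli within minutes to hours. Of 18 such genes, 1 passed higher in DESeq2 (Myc, 1.19, adjusted p = 0.0194) and 5 lower, with a median of −0.64. Among the 5 were Nr4a1 (−1.55, adjusted p = 2.02e-08) and Fosb (−1.62, adjusted p = 9.48e-07). Of the 17 with a mean of at least 100, 12 were highest of the WT libraries in WT-1, against 23.6% of all genes with such a mean. Myc was lost without WT-4 or KO-2. The circadian genes, Per1 among them, summed to 47388 to 56589 in WT, 17771 in KO-1 and 31204 in KO-2. Fkbp5 and Sgk1 were also below WT in both KO libraries, while Cdkn1a and Pdk4 were above it. Between the KO libraries the order differed. The circadian sum was lower in KO-1, and Fkbp5 (563.0 in KO-1, 426.5 in KO-2) and Sgk1 (1872 and 1225) were lower in KO-2. The part of the hour of dissection in these values was not tested, and it cannot be told apart from the groups where no hour is given.

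**Figure D5:**
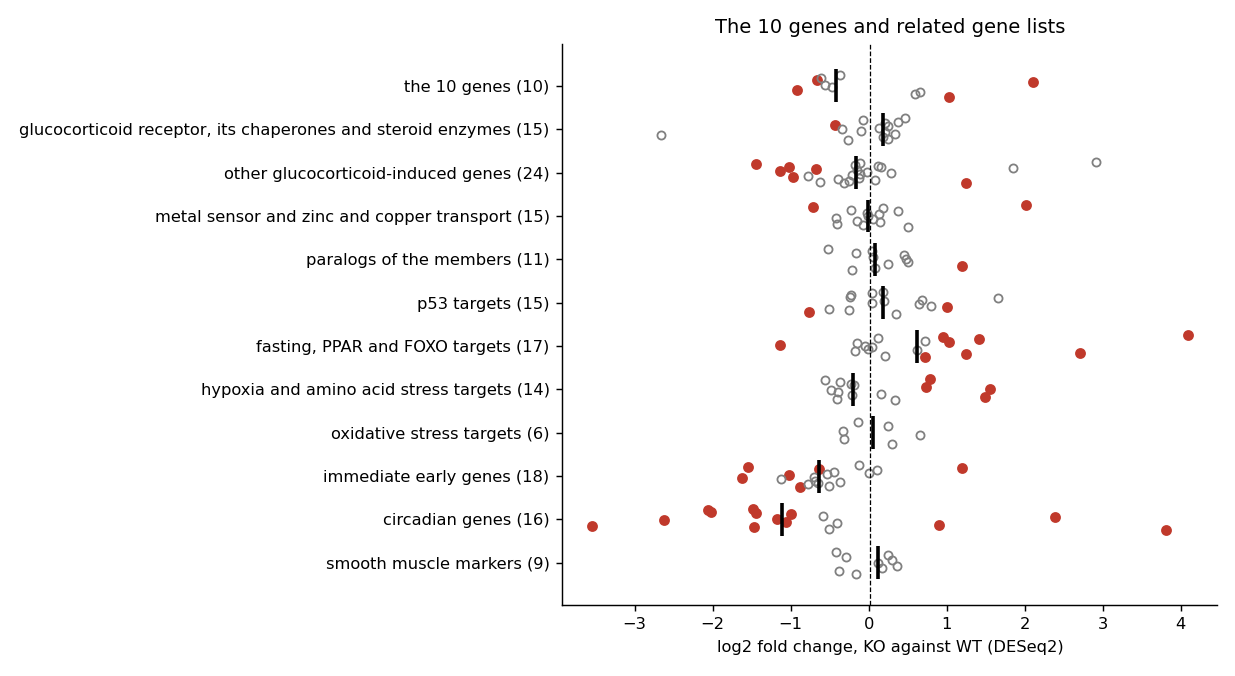
DESeq2 log2 fold changes of the tested genes in each list, with the number tested in brackets; filled red points passed an adjusted p of 0.05, open points did not, thick bars are list medians and the dashed line is the median of all genes tested (0.01). The 10 genes spread to both sides, while 10 of 16 circadian genes passed lower.

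Immune and vessel wall cell markers also differed. Macrophage markers passed higher in 7 of 8 genes, with sums of 7858 to 9480 in WT, 14125 in KO-1 and 15196 in KO-2. Endothelial markers passed higher in 4 of 6, with sums of 12046 to 20875 in WT, 29815 in KO-1 and 28928 in KO-2. Both KO libraries lay above WT for 5 of the 6 endothelial markers and below it for 1, Egfl7. Its counts were 1023 to 1466 in WT, 854.4 in KO-1 and 810.0 in KO-2 (DESeq2 adjusted p = 0.131). Fibroblast markers passed higher in 2 of 7, with sums of 195304 to 216467, 225388 and 236092. Of 5 skeletal muscle and 6 lymphocyte markers tested by DESeq2, 0 passed (1 and 2 higher at an unadjusted p under 0.05, 0 in edgeR), and Myh1 was at 0 in every library. Skeletal muscle markers summed to 180.6 to 247.1 in WT, 700.4 in KO-1 and 234.8 in KO-2, and lymphocyte markers to 17.8 to 69.2, 89.5 and 308.5. Ckm (608.5) made up most of the skeletal muscle sum in KO-1. Whether any of these cells contributed to the values of the 10 genes was not tested.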

How the data were processed

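Thoracic aorta RNA of 4 WT and 2 KO mice was sequenced. Per the study's methods, the authors trimmed reads with Trim Galore, aligned them with HISAT2 to GRCm38 and quantified GENCODE M15 genes with StringTie. What the authors deposited were estimated counts of each gene, in whole numbers and not scaled for depth. How StringTie coverage became whole counts and whether strand was used are not given in the sources used here, and overlapping or near-identical genes can share reads. Columns are named by codes, so each library's column was inferred: codes numbered 1 to 4 were read as WT, and those numbered 1 and 2 as KO.

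DESeq2 1.42.0 in R 4.3.3 compared KO with WT (Wald test, group as the only term, independent filtering tuned to 0.05, Benjamini-Hochberg adjustment over the 17070 genes tested). A gene was called at an adjusted p under 0.05 and a fold above 2. Of the 52636 genes, 27151 had 0 counts throughout. Counts were normalised by DESeq2 size factors, and differences of single libraries used a pseudocount of 0.5. Symbols and positions came from GENCODE M21 on GRCm38 (52489 identifiers matched, 147 did not), and promoters from RefSeq. With 2 KO libraries against 4, an exact permutation test has 15 splits and a smallest two-sided p of 0.133, so none is given. P-values weigh the difference between the groups against the spread between these libraries, with a dispersion for each gene that both groups share. No libraries differed by less than sampling noise (lowest chi-square per degree of freedom 34.5). The KO pair differed more (172) than any WT pair (at most 61.2).

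The 10 genes and all lists were chosen with earlier results of these data known. Named beside the 10 were Nr3c1, Mtf1, Tgfbr1, Tgfbr2 and up to 6 called genes per related list by smallest adjusted p; other genes were named after their values were seen. The code was tested on simulated data. Alternatives were TMM and total-count scaling, scaling on smooth muscle genes or without mitochondrial genes, edgeR 4.0.16 quasi-likelihood fits with and without a low-count filter, DESeq2 on filtered genes or without independent filtering, a replicate block, each library left out, longest-transcript lengths and a one-strand motif search. Independent filtering tuned to 0.1 was added after seeing the data. The genes that passed lower in the list of the receptor and its partners are not reported here.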

Additional observations from a re-analysis of the deposited data

Results flagged for a closer look

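Gaps within the 4 WT libraries were checked for 57 sets of values, of which chance alone would flag about 1 in 20. In 4 of them 1 WT library stood apart by Dixon's criterion. Tsc22d3 was 1925 normalised counts in WT-4 and 1016 to 1021 in the other WT libraries. Per3 was 2096 in WT-2 and 3115 to 3292 in the others. The p53 targets summed to 17914 in WT-1 and 14641 to 15114 in the others. The genes of the fasting, PPAR and FOXO list summed to 25094 in WT-3 and 28004 to 28560 in the others. Groups of 2 libraries cannot be checked this way.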

How the results depend on the processing

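Pdk4 passed the adjusted p in all 16 alternative fits and Cdkn1a in 15, while Fkbp5 passed in 8 and Sgk1 in 4. Of 10 genes, 4 passed in the reported fit, 2 higher and 2 lower. The lower count was 1 with TMM factors, with total counts as size factors and without independent filtering. With size factors from smooth muscle genes, and in edgeR with or without a low-count filter, it was 0 and the count past the adjusted p was 2. EdgeR with the filter called 633 of all genes and without it 664, where DESeq2 called 962. Leaving out each library in turn gave 636 to 1284 calls over all genes, 1 to 5 of the 10 genes called, 2 to 6 past the adjusted p, 2 to 4 of them higher and 0 to 3 lower. The lowest calls over all genes and the highest counts of called and of past genes came without KO-2.

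WT and KO share the numbers 1 and 2, but same-numbered libraries did not deviate together (correlations of −0.0867 and 0.0140), so the numbers were not taken as pairs. A replicate block gave 561 calls over all genes, 1 of 10 called, 1 past the adjusted p (1 higher, 0 lower), Cdkn1a at an adjusted p of 0.064, Zbtb16 at 0.274 and Tgfbr2 at 0.0959 on the log2 scale.

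Signs also turned without KO-1 for Zbtb16 (0.0422), Ddit4 (−0.316) and Errfi1 (−0.119). Their values over the libraries left out ran from −0.928 to 0.0422 for Zbtb16, from −0.316 to 1.15 for Ddit4 and from −0.119 to 1.17 for Errfi1. Mtf1 ran from −0.337 to 0.159 and Ucp2, of the fasting list, from −0.044 to 1.54. With size factors from smooth muscle genes Mtf1 was 0.0246 and Tgfbr2 0.000434. The causes of these shifts were not tested. Over the 10 genes and 16 fits, 130 values kept their direction and side of the threshold, 21 no longer passed, 5 newly passed and 4 turned. With 2 KO libraries, changes that differ between them cannot be resolved.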
